A study of Mus musculus with 12 samples.

Results

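Primary cilia are built and kept by a small set of protein machines, and the genes described here encode those machines. They were taken by name from the deposited gene table, as protein-coding genes of the intraflagellar transport (Ift), Bardet-Biedl syndrome (Bbs), nephronophthisis (Nphp) and tectonic (Tctn) families together with a fixed list of other transport and transition zone genes. This gave 46 genes of 55487 gene IDs, 21936 of them protein-coding. A further match to the names, the antisense gene Ift88os, is not protein-coding and was left out. By role the genes fall into 12 of the IFT-B complex, 6 of the IFT-A complex, 2 kinesin-2 motor subunits, 8 BBS genes, 4 nephronophthisis or inversin genes, 12 genes of the Meckel syndrome (MKS) module of the transition zone, and 2 genes of ciliary signalling, Arl13b and Kif7.

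Whole-kidney RNA from 15-day-old mice (postnatal day 15) filled 12 libraries, 3 in each of 4 groups: Cep120 KO and Cep120 control, and Pkd1 KO and Pkd1 control. The KO libraries have titles with homo and the genotype label KO of their gene, and the control libraries have titles with het and the genotype label WT, so whether a control carried 1 deleted copy is not settled by the labels. Both lines carry the Hoxb7 driver in their names, which is known to act in the ureteric bud and the collecting duct grown from it, so most cell types of the kidney are outside its reach. Cep120 encodes a centriole protein needed for the basal body of the cilium, and Pkd1 encodes polycystin-1, a membrane protein of the cilium. Whether each library is a separate animal is not stated, so p-values measure the spread between libraries, which may be technical.

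Intraflagellar transport carries cargo along the ciliary microtubules. IFT-B particles with kinesin-2 move towards the tip, IFT-A particles with dynein-2 move back, and the BBSome takes membrane proteins out of the cilium. At its base the transition zone, built of the MKS and NPHP modules, decides which proteins may enter. In the kidney nearly every tubule cell has a single primary cilium, and mutations in many of these genes cause cystic kidney disease or nephronophthisis.

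Library totals were 23070688 to 31837958 counts. Genes with a count above 0 numbered 30321 to 32740 in 6 libraries (all Cep120 KO, Cep120 controls 1 and 2, and Pkd1 control 3) and 23544 to 25665 in the other 6. The counts of Cep120 controls 1 and 2 were unusually alike, with a chi-square per gene of 5.8, where other replicate pairs had at least 28.6. The female-specific transcript Xist was under 1 CPM (read counts scaled to library size by TMM) in the 3 Pkd1 KO libraries and in Cep120 KO 1 and 2, and between 53.6 and 193 CPM in the others. Within the Pkd1 line this split is the same as that between KO and control, so sex and genotype cannot be told apart there. Cep120 KO 3, Cep120 controls 1 and 2 and Pkd1 control 3 held Y-linked RNA, at 11.7 to 104 CPM, beside Xist. The RNA of the deleted genes did not check the labels, so KO and control below mean the libraries labelled so. From here on CPM are read counts scaled to library size by TMM. Cep120 averaged 17.9 ± 2.16 CPM in Cep120 KO and 16.2 ± 2.51 CPM in Cep120 controls, and Pkd1 averaged 28.8 ± 6.69 CPM in Pkd1 KO and 17.2 ± 4.0 CPM in Pkd1 controls (SD, n = 3 each).

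The X-box, the site bound by RFX transcription factors in promoters of ciliary genes, is built of a pair of facing half-sites. Promoters (250 bases before to 50 after the start) of 40 of the 46 genes were found in RefSeq on GRCm38.p6, and Ift122, Ift80, Ift81 and Tmem67 are among those without an entry. The half-site GTTGCC, on either strand, lay in 20 of these 40 promoters (50%), against 14.1% of 27025 genes with a promoter entry. The longer form GTTNCCNNG, which overlaps it where its first N is G, lay in 24 (60%), against 18.8%. A facing pair, GTTNCC followed after 0 to 3 bases by GGNAAC, was looked for after the half-sites had been seen, and lay in 5 of the 40 promoters (12.5%), against 0.936%. These 5 pairs are shown in capitals, each read along its gene's strand, because both genes that were higher and genes that were lower in Pkd1 KO kidneys are among them.
Bbs7, chr3:36613477-36613530, minus strand: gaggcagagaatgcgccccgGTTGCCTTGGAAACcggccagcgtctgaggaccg
Tctn1, chr5:122264411-122264440, minus strand: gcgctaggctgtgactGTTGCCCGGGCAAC
Mks1, chr11:87853171-87853214, plus strand: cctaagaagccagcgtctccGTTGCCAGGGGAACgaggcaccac
Ift57, chr16:49699214-49699266, plus strand: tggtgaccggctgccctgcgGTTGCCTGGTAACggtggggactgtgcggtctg
Tctn3, chr19:40612339-40612391, minus strand: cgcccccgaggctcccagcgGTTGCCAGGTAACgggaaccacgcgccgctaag
The pair begins 121 bases before the start of Bbs7, 24 before that of Mks1, 60 before that of Ift57 and 140 before that of Tctn3, and in Tctn1 it begins at base 37 after the start. Ift43, the gene with the smallest p in the Pkd1 comparison, and Tmem107, among the most reduced, had the longer half-site next to their start and no facing pair by this search.
Ift43, chr12:86082535-86082563, plus strand: gggacgcggcggagacgccgGTTTCCAGG
Tmem107, chr11:69070777-69070808, plus strand: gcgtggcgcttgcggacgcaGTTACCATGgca
A match is a run of letters, and binding was not measured.

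All 46 genes passed the filter on low counts, and the lowest count of any of them in any library was 20. Levels between genes are compared here in the deposited TPM, which are scaled by transcript length. Over the 12 libraries the median gene had a mean of 7.87 TPM, 17 genes lay above 10 TPM and 6 lay below 2 TPM. The most abundant was Ift20, a small IFT-B subunit that also works at the Golgi, with a mean of 121 TPM. It had 121, 131 and 122 TPM in Cep120 KO, against 115, 112 and 124 TPM in Cep120 controls. In the other line it had 118, 108 and 127 TPM in Pkd1 KO, against 121, 134 and 119 TPM in Pkd1 controls. The groups of each line overlapped for Ift20 on this scale. Ift46 and Ift43 came next, with means of 79.6 and 61.3 TPM, and both were set apart by the Pkd1 KO libraries. Ift46 had 122, 127 and 93.8 TPM in Pkd1 KO, against 67.7, 64.6 and 68.3 TPM in Pkd1 controls. Ift43 had 104, 96.8 and 99.7 TPM in Pkd1 KO, against 50.4, 47.4 and 52.5 TPM in Pkd1 controls.

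At the other end were Kif7, a kinesin-like regulator of Hedgehog signalling at the ciliary tip, and Nphp4, with means of 0.379 and 0.387 TPM. Kif7 had 0.547, 0.341 and 0.286 TPM in Cep120 KO, against 0.291, 0.324 and 0.186 TPM in Cep120 controls, and 0.355, 0.522 and 0.548 TPM in Pkd1 KO, against 0.315, 0.231 and 0.598 TPM in Pkd1 controls. Nphp4 lay between 0.173 TPM in Pkd1 KO 2 and 0.557 TPM in Pkd1 KO 3. Over the 6 control libraries the coefficient of variation ran from 6.84% for Ift81 to 32.8% for Kif7, with a median of 14.5% over the 46 genes.

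**Figure D1:**
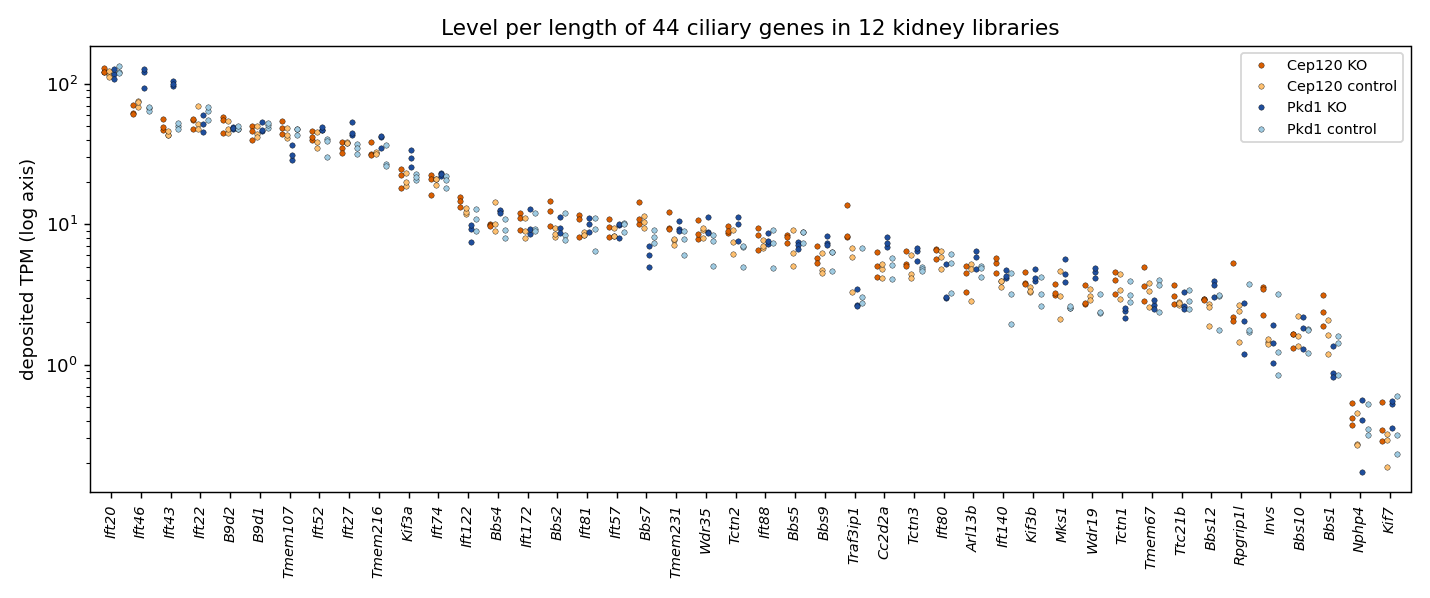
Deposited TPM (log axis) of 44 of the ciliary genes, ordered by their mean over 12 libraries, with 1 point per library coloured by group. Ift20 stands highest at a mean of 121 TPM and Kif7 lowest at 0.379 TPM, and the Pkd1 KO points of Ift43 and Ift46 lie above all others of those genes.

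Loss of Cep120, as labelled, left the RNA of the ciliary machinery with no call. None of the 46 genes passed an adjusted p of 0.05 in Cep120 KO against Cep120 controls (edgeR's quasi-likelihood test, Benjamini-Hochberg over 19890 genes), and percent called over all genes was 0 as well. DESeq2 and limma's voom also called 0 of the 46, while DESeq2 called 0.106% of all genes. At an unadjusted p under 0.05 there were 3 of the 46, against 6.04% of all genes. The median log2 fold change of the 46 was -0.008, against 0.012 for all genes tested, and the median size of change was 0.10, against 0.20. For 33 of the 46 the 95% interval of the change lay within 1.5-fold either way, and for 42 within 2-fold. In 4 genes every Cep120 KO library lay above every Cep120 control and in 2 below, where 8.64% and 7.88% of all genes did so.

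The 3 genes with an unadjusted p under 0.05 were Traf3ip1, Invs and Ift46. Traf3ip1, which encodes the IFT-B subunit IFT54, had 15.7, 23.9 and 15.7 CPM in Cep120 KO, against 12.1, 13.6 and 7.79 CPM in Cep120 controls, which gave 0.72 ± 0.27 on the log2 scale (SE throughout for log2 fold changes; edgeR adjusted p = 0.757). Invs, which encodes inversin of the compartment above the transition zone, had 7.92, 7.0 and 6.03 CPM in Cep120 KO, against 4.28, 4.40 and 5.15 CPM in Cep120 controls, a log2 fold change of 0.60 ± 0.26 (edgeR adjusted p = 0.757). Ift46, of the IFT-B core, had 55.5, 51.8 and 56.2 CPM in Cep120 KO, against 65.8, 60.2 and 79.4 CPM in Cep120 controls, a log2 fold change of -0.33 ± 0.15 (edgeR adjusted p = 0.757). In all 3 the libraries of the groups did not overlap. Others without overlap were the transition zone gene Tmem231, higher in Cep120 KO, and Ift27, an IFT-B GTPase, lower in Cep120 KO, at log2 fold changes of 0.24 and -0.30. The remaining 40 lay between -0.31 (Bbs10) and 0.35 (Kif7). Cep120 control 3 belongs with the libraries that detected fewer genes, and without it the log2 fold change of Traf3ip1 was 0.52 and that of Invs 0.68.

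What the deposited transcript estimates assign to Traf3ip1 and Invs is mostly not coding. Over the 12 libraries 88.3% of the TPM of Traf3ip1 was in a transcript annotated as a retained intron, and 69% of the TPM of Invs in transcripts annotated as non-coding. The non-coding part of Traf3ip1 was 7.35, 12.9 and 7.79 TPM in Cep120 KO, against 5.16, 6.12 and 2.74 TPM in Cep120 controls. Its coding part was 0.815, 0.933 and 0.434 TPM in Cep120 KO, against 0.677, 0.654 and 0.573 TPM in Cep120 controls, so the groups overlapped. The non-coding part of Traf3ip1 was 3.14, 1.88 and 2.07 TPM in Pkd1 KO, against 1.87, 2.43 and 6.18 TPM in Pkd1 controls. Traf3ip1 was the single gene of the 46 whose CPM was higher in each of the 6 libraries with more detected genes than in each of the other 6 (2.17% of the 46, against 7.20% of all genes), and 3 of the 46, Ift43 and Kif3a among them, were lower in each of them, as were 2.10% of all genes. How far the number of detected genes takes part in the values of Traf3ip1 was not tested beyond the fit with it as a term, in which its Cep120 log2 fold change was 0.50. For Invs the non-coding part was 2.91, 2.78 and 1.56 TPM in Cep120 KO, against 0.955, 0.827 and 0.847 TPM in Cep120 controls, with no overlap, while the coding part was 0.698 ± 0.014 TPM in Cep120 KO and 0.578 ± 0.089 TPM in Cep120 controls (SD, n = 3 each). Invs also overlaps Tex10 on the other strand, and it is not known here whether counting used strand.

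**Figure D2:**
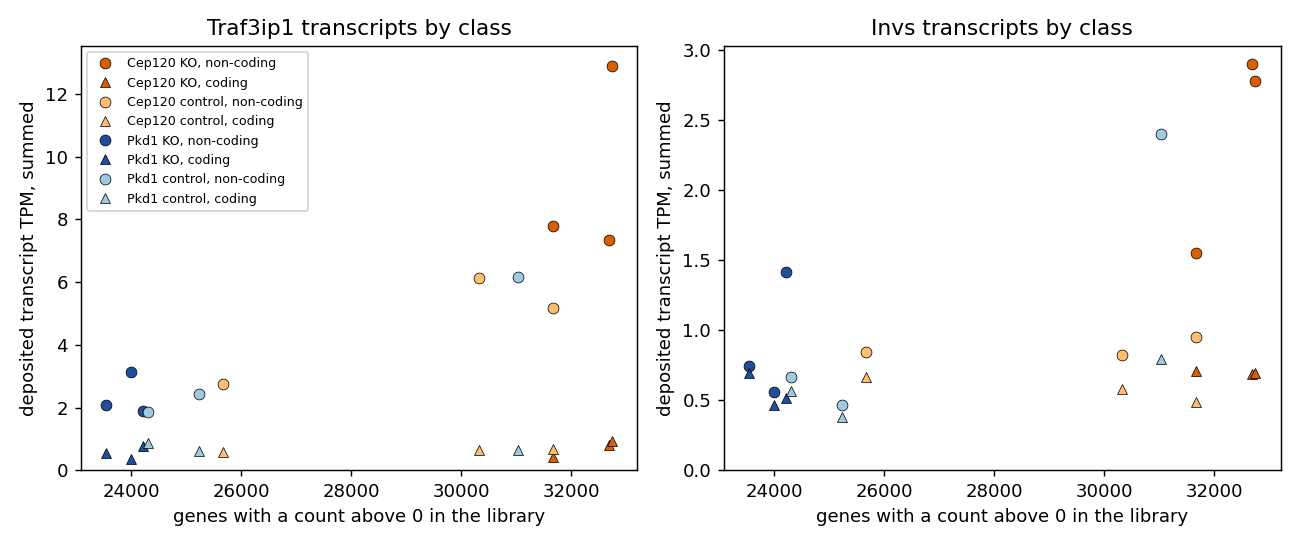
Summed deposited TPM of coding (triangles) and non-coding (circles) transcripts of Traf3ip1 and Invs in each library, against the number of genes with a count above 0 in that library. The non-coding part of Traf3ip1 reaches 12.9 TPM in Cep120 KO 2 while its coding part stays at or below 0.933 TPM in every library.

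Loss of Pkd1, as labelled, went with moderate changes in both directions within the ciliary machinery. Of the 46 genes 13 passed the test in Pkd1 KO against Pkd1 controls (28.3%), where 44.4% of all 19890 genes and 49.2% of the 12145 genes in the same range of mean CPM did so. Of these, 5 were higher, namely Ift43, Mks1, Wdr19, Ift46 and Cc2d2a, where 22.1% of all genes were called higher. The other 8 were lower, namely Bbs7, Tmem107, Ift80, Rpgrip1l, Bbs5, Tctn1, Tmem67 and Bbs1, where 22.4% of all genes were called lower. At an unadjusted p under 0.05 there were 20 of the 46, where 52.7% of all genes were so. The median log2 fold change of the 46 was -0.079, against -0.043 for all genes, and their median size of change was 0.28, against 0.60 for all genes and 0.49 for genes in the same range of CPM. No ciliary gene of the 46 reached a 2-fold change, which 32.4% of all genes did, and 40.2% of all genes changed by more than the largest of them. In 10 genes every Pkd1 KO library lay above every Pkd1 control and in 8 below, where 27.4% and 25.5% of all genes did so. For 19 of the 46 the 95% interval lay within 1.5-fold either way, and for 36 within 2-fold. In a whole kidney, fewer cells of a type and less RNA per cell cannot be told apart.

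Markers of several cell types moved by far more than these genes did, while the sums of intercalated cell genes overlapped between the groups. Summed over 10 proximal tubule genes the level was 557 to 825 CPM in Pkd1 KO, against 4709 to 7572 CPM in Pkd1 controls, and 10 of 10 were called lower. Fibroblast and myofibroblast genes summed to 6444 to 10514 CPM in Pkd1 KO, against 1875 to 3110 CPM in Pkd1 controls (8 of 10 higher). Macrophage genes summed to 1256 to 1850 CPM in Pkd1 KO, against 144 to 463 CPM in Pkd1 controls (9 of 9 higher). Principal cell genes, of a cell type in reach of the Hoxb7 driver but not the only one, summed to 2291 to 4070 CPM in Pkd1 KO, against 743 to 966 CPM in Pkd1 controls (9 higher and 1 lower of 10). Proliferation genes summed to 153 to 227 CPM in Pkd1 KO, against 406 to 476 CPM in Pkd1 controls (9 of 10 lower). Loop of Henle genes summed to 1638 to 2213 CPM in Pkd1 KO, against 2657 to 3987 CPM in Pkd1 controls (1 higher and 6 lower of 8), and distal convoluted tubule genes to 135 to 156 CPM in Pkd1 KO, against 547 to 636 CPM in Pkd1 controls (5 of 6 lower). Of the other lists, podocyte genes had 2 of 7 lower (median log2 fold change -0.21). They summed to 116 to 152 CPM in Pkd1 KO, against 214 to 249 CPM in Pkd1 controls. Endothelial genes had 7 of 8 lower (median -0.86), and summed to 313 to 378 CPM in Pkd1 KO, against 547 to 638 CPM in Pkd1 controls. Intercalated cell genes had 3 higher and 4 lower of 9 (median -0.47). Their sums overlapped, at 449 to 522 CPM in Pkd1 KO, against 281 to 513 CPM in Pkd1 controls. T and B cell genes had 1 higher and 6 lower of 8 (median -2.32), with sums of 11.6 to 13.6 CPM in Pkd1 KO, against 14.7 to 17.2 CPM in Pkd1 controls. The part of these shifts in the values of the ciliary genes was not tested. Markers of motile multiciliated cells, which carry many cilia, were at or near the floor: 17 genes summed to 11.1 to 13.8 CPM in Pkd1 KO, against 8.86 to 12.1 CPM in Pkd1 controls, and 8 of the 17 were under 1 CPM in every library.

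**Figure D3:**
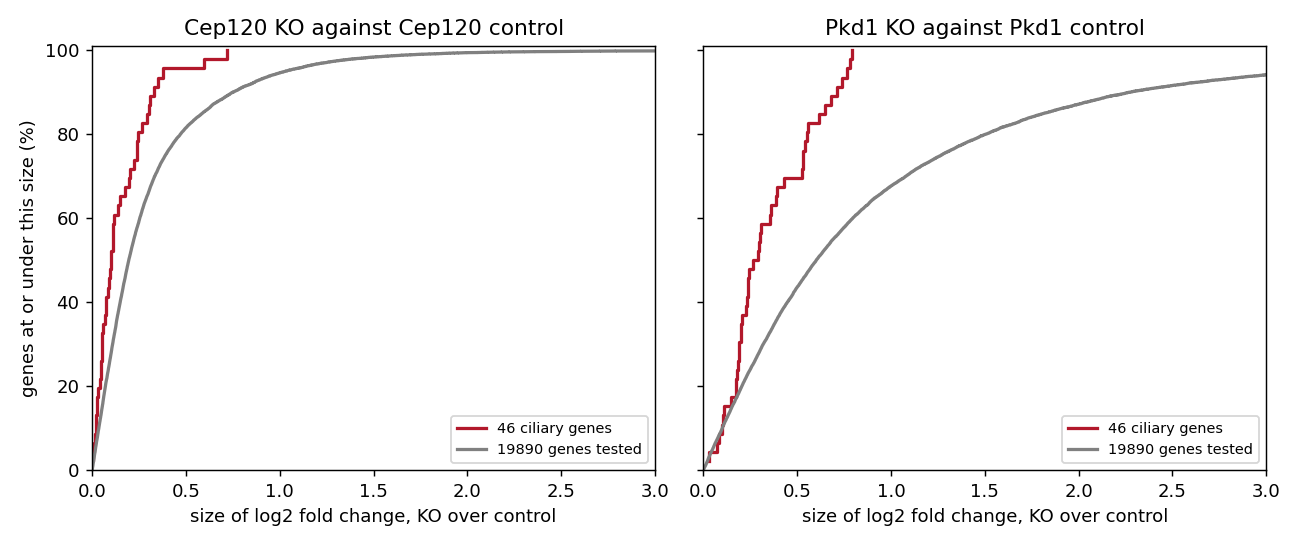
Share of genes (%) whose log2 fold change, KO over control, is at or under a given size, for the 46 ciliary genes and for the 19890 genes tested. The ciliary curve rises sooner in both comparisons, with a median size of 0.10 against 0.20 in the Cep120 line and 0.28 against 0.60 in the Pkd1 line.

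Among the 6 IFT-A genes, whose complex brings particles back from the tip and carries membrane proteins in, 2 were higher in Pkd1 KO and none was lower. Over all genes 22.1% were called higher and 22.4% lower. Ift43, the smallest subunit, had 52.4, 51.5 and 50.3 CPM in Pkd1 KO, against 28.5, 33.7 and 26.8 CPM in Pkd1 controls, and 25.2, 27.4 and 26.5 CPM in Cep120 KO, against 24.5, 24.5 and 29.9 CPM in Cep120 controls. The Pkd1 KO libraries stood alone, and the log2 fold change was 0.79 ± 0.11 (edgeR adjusted p = 0.00014). Wdr19, which encodes the core subunit IFT144, had 14.9, 14.2 and 16.2 CPM in Pkd1 KO, against 11.2, 6.73 and 11.6 CPM in Pkd1 controls, a log2 fold change of 0.61 ± 0.19 (edgeR adjusted p = 0.0173). Pkd1 control 2 lay far below the other 2 controls, and without it the log2 fold change was 0.41 with an adjusted p of 0.0439 by edgeR. Ift140, also of the core, had 15.5, 15.3 and 15.5 CPM in Pkd1 KO, against 12.2, 9.19 and 13.9 CPM in Pkd1 controls, a log2 fold change of 0.39 ± 0.15 (edgeR adjusted p = 0.0523). Ift140 did not pass although its groups did not overlap, and neither did Wdr35 at 0.29 (edgeR adjusted p = 0.0653). The 2 remaining IFT-A genes, Ift122 and Ttc21b, were at -0.25 and -0.29 and did not pass.

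Among the 12 IFT-B genes 1 was higher and 1 lower, where 22.1% and 22.4% of all genes were. Ift46 had 98.9, 110 and 77.2 CPM in Pkd1 KO, against 64.9, 75.1 and 57.7 CPM in Pkd1 controls, a log2 fold change of 0.53 ± 0.15 (edgeR adjusted p = 0.0115). It lost the call without Pkd1 KO 2, at 0.40 and an edgeR adjusted p of 0.0687. Ift80, of the outer part of IFT-B, had 7.99, 8.38 and 13.0 CPM in Pkd1 KO, against 17.8, 13.0 and 17.3 CPM in Pkd1 controls, a log2 fold change of -0.71 ± 0.19 (edgeR adjusted p = 0.00843). Pkd1 KO 3 reached the level of Pkd1 control 2, so the groups met. Traf3ip1 had 6.33, 5.61 and 5.03 CPM in Pkd1 KO, against 6.19, 8.29 and 12.8 CPM in Pkd1 controls, a log2 fold change of -0.68 ± 0.28 (edgeR adjusted p = 0.0633). Its highest control is Pkd1 control 3, which detected more genes than the other libraries of the line.

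Ift88 and Ift81, of the same core as Ift46, were among the 3 genes closest to 0, with Bbs10. Ift88, whose loss causes cystic kidneys in mice, had 16.9, 20.04 and 16.4 CPM in Pkd1 KO, against 18.3, 14.2 and 19.7 CPM in Pkd1 controls, a log2 fold change of 0.03 with a 95% interval of -0.28 to 0.34. Ift88 overlaps its antisense gene Ift88os, whose reads cannot be told apart where strand is not used. Ift81, which binds tubulin with Ift74, had 18.5, 18.5 and 22.3 CPM in Pkd1 KO, against 20, 19.7 and 20.8 CPM in Pkd1 controls, a log2 fold change of -0.03 with an interval of -0.30 to 0.24. For both genes the groups overlapped and the interval stayed under 1.5-fold either way. The other IFT-B genes not named so far in this comparison, Ift20, Ift22, Ift27, Ift52, Ift57, Ift74 and Ift172, lay between -0.35 (Ift22) and 0.20 (Ift27), and none passed. Kif3a and Kif3b, the motor subunits of kinesin-2, lay at 0.17 ± 0.11 and 0.18 ± 0.11. Kif3a had 46.7, 47.6 and 43.5 CPM in Pkd1 KO, against 40.3, 43.7 and 38.3 CPM in Pkd1 controls, and Kif3b had 22.1, 19.2 and 18.9 CPM in Pkd1 KO, against 16.7, 16.8 and 19.7 CPM in Pkd1 controls. Neither passed the test, and both intervals stayed under 1.5-fold.

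**Figure D4:**
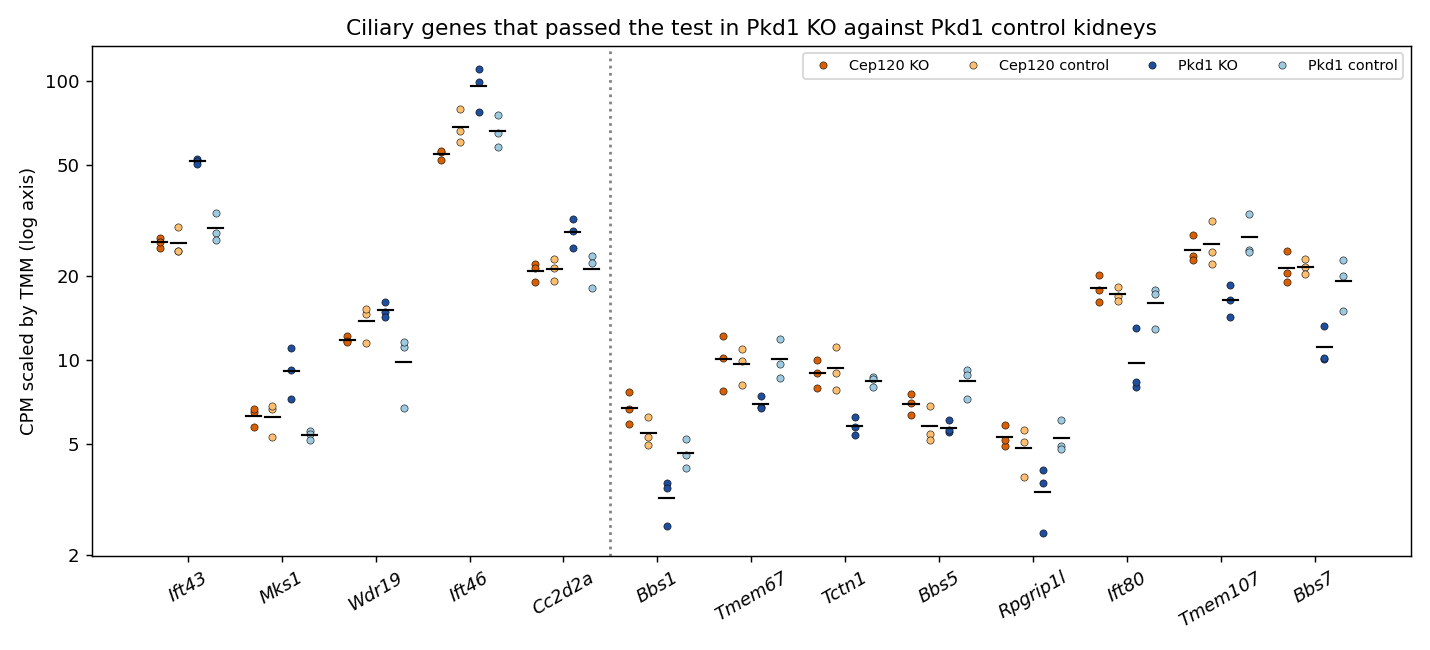
TMM-scaled CPM (log axis) in every library of the 13 ciliary genes that passed the test in the Pkd1 comparison, with genes higher in Pkd1 KO left of the dotted line and lower ones right of it; bars mark group means. The Pkd1 KO points of Ift43, between 50.3 and 52.4 CPM, lie clear of all other libraries, while those of Ift80 meet the lowest Pkd1 control.

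Of the 8 BBS genes 3 were lower in Pkd1 KO and none was higher, and all 3 encode subunits of the BBSome. The share of all genes called lower was 22.4%, and 22.1% were called higher. Bbs7 had 10.1, 10.2 and 13.2 CPM in Pkd1 KO, against 20, 22.7 and 14.9 CPM in Pkd1 controls, a log2 fold change of -0.78 ± 0.17 (edgeR adjusted p = 0.00248). Bbs5, the subunit that binds phosphoinositides, had 6.09, 5.51 and 5.60 CPM in Pkd1 KO, against 9.22, 8.84 and 7.26 CPM in Pkd1 controls, a log2 fold change of -0.56 ± 0.17 (edgeR adjusted p = 0.0168). Bbs1, which binds the GTPase Arl6, had 2.54, 3.64 and 3.48 CPM in Pkd1 KO, against 5.21, 4.12 and 4.57 CPM in Pkd1 controls, a log2 fold change of -0.53 ± 0.20 (edgeR adjusted p = 0.0492). None of the 3 overlapped between groups in CPM, where 25.5% of all genes had every Pkd1 KO library below every Pkd1 control. In the deposited TPM Bbs1 overlapped, at 0.878, 1.36 and 0.817 TPM in Pkd1 KO, against 1.59, 0.846 and 1.44 TPM in Pkd1 controls. So did Bbs5, with 7.44 TPM in Pkd1 KO 1 and 7.33 TPM in Pkd1 control 2. Bbs1 sat at the threshold and kept its call in 8 of 26 other settings, whereas Bbs7 kept its call in 24 and Bbs5 in 20. The other BBSome genes did not pass: Bbs9 lay at 0.39 (edgeR adjusted p = 0.0523), Bbs4 at 0.26 (edgeR adjusted p = 0.0753) and Bbs2 at 0.10. Of the chaperonin-like genes that help the BBSome assemble, Bbs12 lay at 0.23, and Bbs10 had 2.67, 3.96 and 4.56 CPM in Pkd1 KO, against 4.27, 3.67 and 3.82 CPM in Pkd1 controls, a log2 fold change of -0.07 ± 0.24.

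Of the 12 genes in the MKS module of the transition zone 6 were called (50%), 2 higher and 4 lower. Over all genes 44.4% were called, and 49.2% of those in the same range of CPM. Mks1, a B9-domain protein, had 7.28, 9.18 and 11.1 CPM in Pkd1 KO, against 5.57, 5.43 and 5.18 CPM in Pkd1 controls, a log2 fold change of 0.77 ± 0.18 (edgeR adjusted p = 0.00426). Cc2d2a, a C2-domain scaffold, had 28.9, 31.9 and 25.1 CPM in Pkd1 KO, against 23.5, 18.0 and 22.2 CPM in Pkd1 controls, a log2 fold change of 0.43 ± 0.13 (edgeR adjusted p = 0.0199). Neither gene overlapped between groups. Tmem107, a membrane protein of the zone, had 14.3, 16.3 and 18.6 CPM in Pkd1 KO, against 24.8, 33.3 and 24.3 CPM in Pkd1 controls, a log2 fold change of -0.74 ± 0.17 (edgeR adjusted p = 0.00355). Rpgrip1l, a scaffold that anchors the module, had 2.40, 3.64 and 4.06 CPM in Pkd1 KO, against 4.92, 4.82 and 6.09 CPM in Pkd1 controls, a log2 fold change of -0.65 ± 0.23 (edgeR adjusted p = 0.0362). All Pkd1 KO libraries lay below all Pkd1 controls for both.

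Tctn1, a tectonic, had 5.76, 5.38 and 6.25 CPM in Pkd1 KO, against 8.01, 8.69 and 8.58 CPM in Pkd1 controls, a log2 fold change of -0.54 ± 0.16 (edgeR adjusted p = 0.0175). Tmem67, which encodes meckelin, had 6.77, 6.73 and 7.43 CPM in Pkd1 KO, against 11.9, 8.59 and 9.71 CPM in Pkd1 controls, a log2 fold change of -0.53 ± 0.19 (edgeR adjusted p = 0.0375). Both were without overlap between groups in CPM. In the deposited TPM Tmem67 overlapped, at 2.67, 2.49 and 2.90 TPM in Pkd1 KO, against 3.99, 2.38 and 3.67 TPM in Pkd1 controls. Of the TPM of Tctn1 77.4% was in transcripts not annotated as protein-coding. Its coding part overlapped, at 0.508, 0.563 and 0.734 TPM in Pkd1 KO, against 0.697, 0.611 and 0.848 TPM in Pkd1 controls. The 3 tectonics did not move as one: Tctn2 lay at 0.36 (edgeR adjusted p = 0.0629) and Tctn3 at 0.21 (edgeR adjusted p = 0.331). On the other strand Tctn1 overlaps Hvcn1, Tmem67 overlaps Rbm12b2 and Rpgrip1l overlaps Gm36243, and it is not known here whether counting used strand. Tmem216, Tmem231, B9d1 and B9d2, the other genes of the module, lay between -0.23 (B9d1) and 0.19 (Tmem216) and did not pass. Tmem67 and Rpgrip1l each kept their call in 15 of 26 other settings, against 25 for Mks1 and 24 for Tmem107.

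The NPHP genes and inversin, known from human nephronophthisis, gave no call in 4 genes, where 44.4% of all genes were called. So few genes do not show that the group was unaffected. Invs had 2.54, 3.77 and 3.66 CPM in Pkd1 KO, against 4.2, 3.42 and 6.95 CPM in Pkd1 controls, a log2 fold change of -0.55 ± 0.26 (edgeR adjusted p = 0.106). Its groups overlapped and Pkd1 control 3 was the highest library of the line. Nphp4 at -0.30 had a 95% interval of -1.19 to 0.59, so a 2-fold fall was within what the libraries allow. Arl13b, a GTPase of the ciliary membrane, had 8.40, 8.73 and 9.08 CPM in Pkd1 KO, against 8.96, 9.44 and 9.41 CPM in Pkd1 controls, a log2 fold change of -0.09 with an interval of -0.40 to 0.23. Kif7 had 1.19, 1.87 and 1.90 CPM in Pkd1 KO, against 1.21, 1.11 and 2.04 CPM in Pkd1 controls, a log2 fold change of 0.18 ± 0.38.

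**Figure D5:**
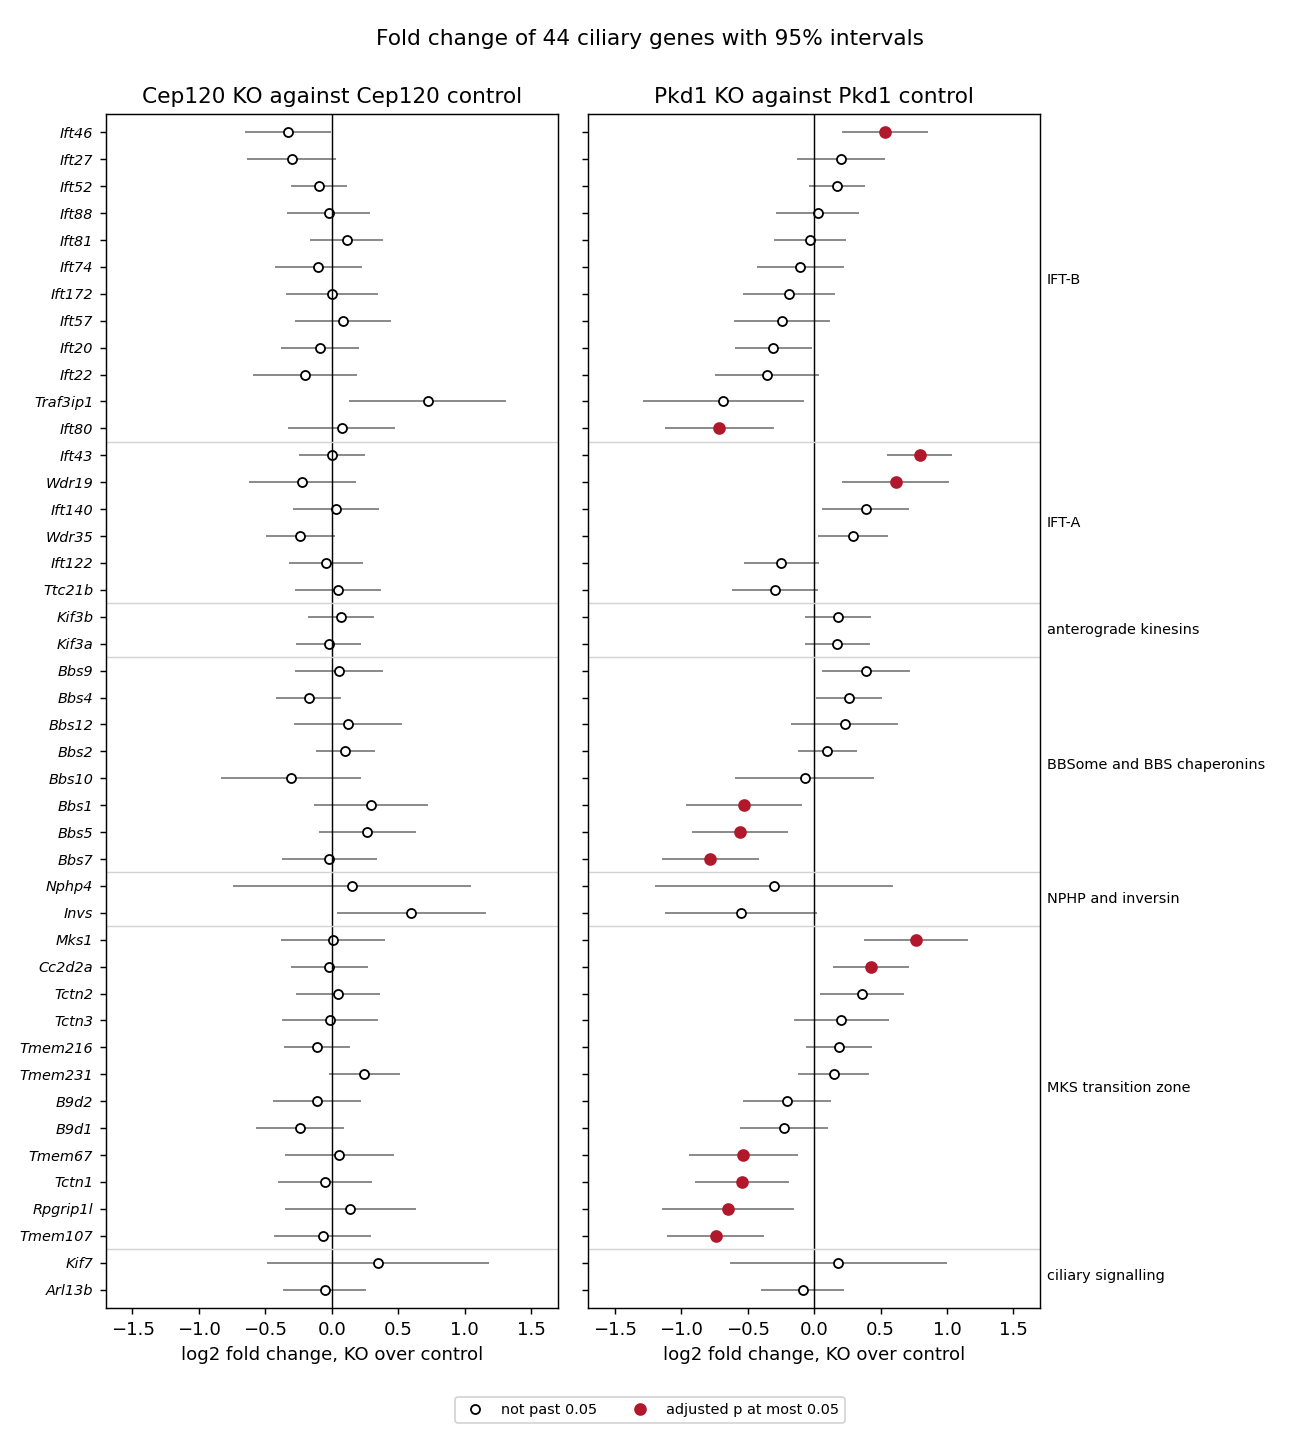
Log2 fold change, KO over control, with its 95% interval for 44 of the ciliary genes, grouped by role, in the Cep120 line (left) and the Pkd1 line (right); filled points passed an adjusted p of 0.05. All points are open in the Cep120 line, and 13 are filled in the Pkd1 line, 5 to the right of 0 and 8 to the left.

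The count and its balance depended on which libraries and which scaling were used. It was 7 without Pkd1 KO 2, 6 with the share of Y-linked RNA as a term and 1, Ift43, with the presence of Xist as a term, while the share called over all genes was 35.1%, 22.9% and 10.1% in those fits. The 6 include Traf3ip1 and Invs, which were not called in the main fit. Xist presence varied within a group in Cep120 KO alone. With upper quartile scaling 4 were higher and 12 lower, and with the deposited log2 CPM 7 were higher and 3 lower. The shares of all genes called higher and lower under these scalings are not given here. The shift in balance is therefore not read as a result about the ciliary genes.

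The difference between the lines was tested directly, as the Pkd1 change minus the Cep120 change. It passed in 11 of the 46 genes (23.9%), where 28.1% of all genes and 31.2% of those in the same range of CPM passed, and 8 of these 11 were also called in the Pkd1 comparison. For Ift43 the difference of log2 fold changes was 0.79 ± 0.16 (edgeR adjusted p = 0.00362), and for Ift46 it was 0.86 ± 0.21 (edgeR adjusted p = 0.00985). Both differences were called in all 25 other settings that gave one. Traf3ip1 had the largest difference in size, -1.40 ± 0.39 (edgeR adjusted p = 0.0184), made of 0.72 in the Cep120 line and -0.68 in the Pkd1 line, neither of which passed alone. Without both replicate 3 controls it was -0.87 and missed the threshold, with an edgeR adjusted p of 0.0515. Invs likewise differed by -1.15 ± 0.37 (edgeR adjusted p = 0.0354) from 0.60 and -0.55. Its call was lost in 11 of the 25 other settings, among them those without Pkd1 control 3, without both replicate 3 controls and with detected genes as a term.

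The other genes whose change differed between the lines were Bbs5 (-0.82), Bbs1 (-0.82), Ift80 (-0.79) and Bbs7 (-0.76), lower in the Pkd1 line, and Wdr19 (0.84), Mks1 (0.75) and Wdr35 (0.53), higher in it. Several of these calls were lost in most of the 25 other settings: Mks1 kept its call in 5, Wdr19, Wdr35 and Ift80 in 10 each, and Bbs1 in 12, while Invs kept it in 14, Bbs7 in 15 and Bbs5 in 19. Bbs5 had 6.35, 7.03 and 7.56 CPM in Cep120 KO, against 6.84, 5.41 and 5.15 CPM in Cep120 controls, and its difference of -0.82 ± 0.24 had an edgeR adjusted p of 0.0219. Its groups overlapped in the Cep120 line and were separate in the Pkd1 line. With 1 library left out the count of 11 was less stable than that of the Pkd1 comparison. It lay between 4 and 11, with 4 when either Cep120 control 1 or Cep120 control 2 was left out. It was 5 without Cep120 KO 2 and without Pkd1 KO 2, and 6 without Cep120 KO 1, Cep120 KO 3, Pkd1 KO 1 or Pkd1 control 1. With the presence of Xist as a term the order was the other way, with 5 calls for the difference and 1 in the Pkd1 comparison.

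Genes of the same machines that the names above do not cover came from lists written for this account. Of 17 other transport, dynein-2 and kinesin-2 genes 1 was higher and 4 were lower in Pkd1 KO, where 22.1% and 22.4% of all genes were. Rabl2, a GTPase that binds IFT-B, had 29.6, 31.1 and 35.3 CPM in Pkd1 KO, against 23.1, 21.65 and 19.1 CPM in Pkd1 controls, a log2 fold change of 0.59 (edgeR adjusted p = 0.00166). Dync2h1, the heavy chain of the motor that carries IFT-A trains back, averaged 16.7 ± 2.37 CPM in Pkd1 KO and 27.5 ± 6.53 CPM in Pkd1 controls, and fell by 0.72 on the log2 scale (edgeR adjusted p = 0.0058). Its light intermediate chain Dync2li1 fell by 0.54 (edgeR adjusted p = 0.0166). The other dynein-2 genes of the list had no call, with log2 fold changes from -0.32 (Tctex1d2) through -0.05 (Wdr60), -0.03 (Dynll1), 0.06 (Dynlrb1) and 0.11 (Wdr34) to 0.36 (Dynlt1b). The other lower genes were Ttc30a1 and Kif17, and Kif17 was under 1 CPM in every library.

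Of 9 other BBS genes 4 were lower and none was higher, where 22.4% of all genes were called lower and 22.1% higher. Mkks, a chaperonin-like partner of Bbs10 and Bbs12, had 11.3, 13.3 and 13.9 CPM in Pkd1 KO, against 40.8, 42.2 and 27.0 CPM in Pkd1 controls, a log2 fold change of -1.51 ± 0.17 (edgeR adjusted p = 2e-05). This was a larger fall than that of any of the 46 genes. Cep290, a link between microtubules and membrane in the transition zone, averaged 8.10 ± 1.86 CPM in Pkd1 KO and 14.7 ± 2.07 CPM in Pkd1 controls (log2 fold change -0.86, edgeR adjusted p = 0.00164). Lztfl1, a regulator of BBSome entry, lay at -0.69 (edgeR adjusted p = 0.00528) and Arl6 at -0.48 (edgeR adjusted p = 0.0151).

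Of 21 other genes of the transition zone, the inversin compartment and membrane targeting, 5 were higher and 6 lower, Cep290 counted again. Over all genes 22.1% were called higher and 22.4% lower. Nek8, the kinase of the inversin compartment, had 24.1, 25.3 and 27.0 CPM in Pkd1 KO, against 12.02, 10.3 and 14.5 CPM in Pkd1 controls, a log2 fold change of 1.05 ± 0.14 (edgeR adjusted p = 7.5e-05). Its binding partner Anks3 averaged 44.5 ± 1.48 CPM in Pkd1 KO and 29.95 ± 2.94 CPM in Pkd1 controls (log2 fold change 0.57, edgeR adjusted p = 0.000984). Invs, of the same compartment, had no call. Tmem80 averaged 16.4 ± 3.64 CPM in Pkd1 KO and 32.7 ± 5.09 CPM in Pkd1 controls (log2 fold change -0.99, edgeR adjusted p = 0.000291).

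Of 19 basal body and ciliogenesis genes 4 were lower and none was higher, where 22.4% of all genes were called lower and 22.1% higher. Among the lower were Fuz, a planar polarity effector, at -1.02 (edgeR adjusted p = 0.00757), Cep89 at -0.58 (edgeR adjusted p = 0.00165) and Rab11a at -0.50 (edgeR adjusted p = 0.0204). Of the transcription factors that act on X-boxes or multiciliated cells, 2 of 6 tested were higher, where 22.1% of all genes were. Rfx2 averaged 5.57 ± 0.81 CPM in Pkd1 KO and 3.03 ± 0.73 CPM in Pkd1 controls (log2 fold change 0.88, edgeR adjusted p = 0.0158), and Foxj1 had 2.40, 1.10 and 1.44 CPM in Pkd1 KO, against 0.521, 0.502 and 0.756 CPM in Pkd1 controls (log2 fold change 1.46, edgeR adjusted p = 0.0419). Rfx3 lay at -0.56 and did not pass (edgeR adjusted p = 0.0546). Of the genes with a facing pair of half-sites, Mks1 was higher, Bbs7 and Tctn1 were lower, and Ift57 and Tctn3 did not pass. The longer half-site lay in 3 of 5 promoters of genes called higher, in 4 of 6 of genes called lower and in 17 of 29 of genes not called.

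Cilia are taken down before a cell divides, by kinases that also act in mitosis. Of 12 genes of tubulin modification and cilium disassembly 4 were higher and 5 lower, where 22.1% and 22.4% of all genes were. Aurka, the kinase that starts disassembly, had 5.15, 6.60 and 9.44 CPM in Pkd1 KO, against 22.9, 23.4 and 16.9 CPM in Pkd1 controls, a log2 fold change of -1.58 ± 0.20 (edgeR adjusted p = 4.9e-05). Nek2 lay at -1.48 (edgeR adjusted p = 0.000153) and Tpgs2, of the complex that adds glutamates to tubulin, at -0.92 (edgeR adjusted p = 0.00109). The proliferation genes given above, which fell in the same libraries, include no member of the 46, and their part in these values was not tested. In the Cep120 comparison none of the genes in these lists was called. Of the polycystin and fibrocystin genes, Pkd2 and Pkhd1 had no call in Pkd1 KO, at log2 fold changes of 0.05 and -0.07, while Pkd1 itself was higher at 0.74 (edgeR adjusted p = 0.00952).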

How the data were processed

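Kidney RNA was extracted with Trizol and Direct-zol and made into libraries with the SMARTer Ultra Low kit, per the labels' protocols. Per the submitters' processing notes, the tools were STAR 2.5.1a, bcl2fastq, Salmon 0.8.2, featureCounts 1.4.6-p5 and Subread, with mm9 as genome build; strand use in counting is not given there. The authors deposited gene counts that are estimated counts (21.6% of 55774 gene lines hold a value that is not whole), which were rounded here, with 287 repeated lines of an ID set aside. The authors also deposited TPM per gene and per transcript, used here for levels between genes, and moderated log2 CPM, used as an alternative. TPM and log2 CPM have no stated prior or pseudocount.

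Library totals of 23070688 to 31837958 counts set the precision, and counting error is only part of it. From the counts, TMM-scaled CPM and edgeR 4.0.16 quasi-likelihood fits over all 12 libraries (filterByExpr, 19890 genes, common biological coefficient of variation 0.238) gave log2 fold changes, their SE and Benjamini-Hochberg adjusted p-values over all genes tested. A gene was called at an adjusted p of 0.05. The difference between the lines was a contrast of the same fit. Alternatives used DESeq2 1.42.0 and limma 3.58.1 under R 4.3.3, other scalings and filters, libraries left out, a replicate block and terms for sex-linked RNA and for detected genes. The fit was tested on simulated data. The same replicate numbers do not pair the libraries: correlations of deviations lay between -0.136 and 0.178.

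The 46 genes, the lists and the tests were chosen with earlier results of these data known. Of the 46 genes, 2 are counted in every total but not reported here by name, and the others were each named at least once. Values in every library were given for up to 3 genes of each role with the smallest p in the Pkd1 comparison, the 3 smallest p in the Cep120 comparison, the 4 smallest p of the difference, the 3 smallest changes, and the highest and lowest levels. The remaining called genes, Cc2d2a, Rpgrip1l and Tmem67, were added to these after their values were seen. From each related list up to 3 genes were given by the smallest p, and others named there were also added after their values were seen. RefSeq promoters were matched by symbol.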

Additional observations from a re-analysis of the deposited data

Results flagged for a closer look

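The change differed between the Pkd1 line and the Cep120 line, by a test of the difference of log2 fold changes itself (edgeR, adjusted over 19890 genes), in 11 of the 46 ciliary genes. The difference, Pkd1 minus Cep120, was above 0 for Ift43 (0.79), Ift46 (0.86), Wdr19 (0.84), Wdr35 (0.53) and Mks1 (0.75). It was below 0 for Traf3ip1 (-1.40), Invs (-1.15), Bbs5 (-0.82), Bbs1 (-0.82), Ift80 (-0.79) and Bbs7 (-0.76). All groups hold 3 libraries, so no search for a library far from the rest of its group was made.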

How the results depend on the processing

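Counts here are of all ciliary genes called in a fit, newly called ones included. The Pkd1 count of 13 was 6 with the Y-linked share as a term, with Traf3ip1 and Invs newly called. It was 1 with Xist presence as a term and 5 at an adjusted p of 0.01, and with 1 library left out it lay between 7 and 15. The count of 11 differing genes was 7 with the deposited log2 CPM, Tmem107 newly called, and 4 with Cep120 controls 1 and 2 summed. It was 5 with the Y-linked share and 5 with Xist presence as a term, and 4 to 11 with 1 library left out. The Cep120 count was 0 under every alternative run, leaving out libraries included. The median log2 fold change of the 46 genes in the Cep120 comparison was 0.126 with the deposited log2 CPM, which moved the median of all genes to 0.149. In the Pkd1 comparison it was -0.165 with upper quartile scaling, 0.006 with the deposited log2 CPM, 0.031 with the Y-linked share and 0.040 with Xist presence as a term. The median difference was -0.123 with upper quartile scaling, -0.134 without both replicate 3 controls and -0.134 with detected genes as a term. With 1 library left out the medians lay between -0.044 and 0.031 (Cep120), -0.127 and -0.019 (Pkd1), and -0.088 and 0.016 (difference). With the replicate block, whose numbers do not pair the libraries, the counts were 0, 11 and 6. The cause of these shifts was not tested. No called value of a named gene changed sign under any alternative run. The fit of 1 line alone gives no difference between lines. Genes under 2 TPM had the widest intervals.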
